A study of Mus musculus with 35 samples.

Results

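Metallothioneins are small, cysteine-rich proteins that bind zinc and copper, sequester cadmium and scavenge reactive oxygen. In the mouse, Mt1 and Mt2 are made in most tissues, Mt3 is best known from brain, and Mt4 from stratified squamous epithelium. Mtf1 encodes the zinc-sensing transcription factor that binds metal response elements in metallothionein promoters, and Slc30a1 encodes a zinc exporter of the plasma membrane that is itself a target of that factor. Glucocorticoids and oxidative stress are also known to raise Mt1 and Mt2.

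These 6 genes, taken by name from a table of 54354 genes, were followed through 35 libraries of polyadenylated RNA from mouse colon tumour organoids, which are epithelial cultures that grow as small hollow structures. All organoids, controls included, carried the genotype that the labels call AKP and were cultured in vitro. The labels give no dose, exposure time, vehicle or culture number. Whether the libraries within a group stem from different cultures is not stated, so errors and p-values describe library-to-library spread that could be purely technical. The genes were selected on their fitted fold changes in these same comparisons, so their values are given as a description without p-values.

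The palmitic acid experiment had 3 control libraries, 3 libraries treated with this saturated fatty acid in batch 1 and 2 treated in batch 2. The controls are labelled for palmitic acid as a whole and are assigned to neither batch. The same 3 libraries served for both comparisons, and effects of batch and of treatment cannot be told apart. The carmofur experiment, with an inhibitor of the enzymes that break down ceramides, had 12 control and 15 treated libraries. Whether differences with carmofur run through ceramides or through another action of the drug was not tested. The series asked how fatty acid supply and ceramide levels change transcription in these organoids. Libraries held 762888 to 3742289 gene counts with palmitic acid and its controls, and 1663750 to 10609563 with carmofur and its controls. The shallowest palmitic acid library was control 1. All 10 colon epithelium markers sought were detected in 4 of the 5 groups, and 9 in palmitic acid batch 2, where Cdx1 was at 0. Their summed level was 3110.8 to 6674 CPM (counts scaled to a common library size), against at most 78.3 CPM for 9 mesenchymal markers, most of it Vim, and 165.6 CPM for 9 immune markers, most of it Cd68. In bulk RNA, fewer cells with a transcript and less transcript per cell cannot be told apart.

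The 4 metallothionein genes lie side by side on the plus strand of chromosome 8 in mm10, in the order Mt4 (94137197 to 94139031), Mt3 (94152607 to 94154146), Mt2 (94172664 to 94173568) and Mt1 (94179082 to 94180327), within 43131 bases. Each has a transcript of 3 exons, of 398 bases for Mt4, 536 for Mt3, 511 for Mt2 and 549 for Mt1. Mtf1 lies on chromosome 4 (124802104 to 124849800) and Slc30a1 on chromosome 1 (191906767 to 191913247). No stretch of 31 bases was shared among the transcripts of Mt1, Mt2, Mt3 and Mt4, which bears on how reads were divided among them. Of the 573 such stretches of Mt2, 330 also occur in Gm45774, a gene on the opposite strand, which held at most 3 counts in any library.

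The proximal promoters are shown because the metal response element is the sequence through which zinc acts on these genes. RefSeq promoters on GRCm38.p6 were matched for 6 of the 6 genes. The core of the element was searched as TGCACNC and TGCGCNC on both strands, from 250 bases before to 50 bases after the RefSeq transcription start. The 250 bases before the start are printed for the metallothionein genes with a match in them and for Slc30a1, in lower case with matches in capitals, and a match on the minus strand reads as the reverse complement. The windows are chr8:94172368-94172617 for Mt2, chr8:94178839-94179088 for Mt1, chr8:94136954-94137203 for Mt4 and chr1:191906531-191906780 for Slc30a1, all on the plus strand.
Mt2: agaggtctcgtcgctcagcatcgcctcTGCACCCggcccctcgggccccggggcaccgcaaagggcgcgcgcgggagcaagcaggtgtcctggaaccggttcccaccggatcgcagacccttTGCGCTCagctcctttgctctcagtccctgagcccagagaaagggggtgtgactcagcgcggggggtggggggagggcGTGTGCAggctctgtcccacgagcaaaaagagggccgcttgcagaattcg
Mt1: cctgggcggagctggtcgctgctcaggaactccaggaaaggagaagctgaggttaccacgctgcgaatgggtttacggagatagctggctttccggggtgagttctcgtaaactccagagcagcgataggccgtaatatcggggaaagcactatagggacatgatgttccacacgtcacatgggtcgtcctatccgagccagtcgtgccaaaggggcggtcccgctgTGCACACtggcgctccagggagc
Mt4: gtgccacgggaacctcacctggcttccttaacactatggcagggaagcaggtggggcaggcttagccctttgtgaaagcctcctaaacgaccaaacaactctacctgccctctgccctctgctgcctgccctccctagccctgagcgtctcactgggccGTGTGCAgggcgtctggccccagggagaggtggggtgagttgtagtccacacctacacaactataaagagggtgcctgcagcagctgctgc
Slc30a1: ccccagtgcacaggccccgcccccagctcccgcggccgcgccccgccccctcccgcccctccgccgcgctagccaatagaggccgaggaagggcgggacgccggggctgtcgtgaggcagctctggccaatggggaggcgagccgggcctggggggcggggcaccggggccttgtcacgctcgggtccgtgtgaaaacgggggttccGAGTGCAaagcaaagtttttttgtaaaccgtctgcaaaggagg

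Counted from the RefSeq transcription start, Mt2 had 4 matches, at -223, -128, -50 and 5. Mt1 had 3 matches, at -23, 3 and 21, of which the latter pair lie past the start and are not printed. Slc30a1 had 2, at -43 and 31. Mt4 had 1 match at -91 and Mt3 had 1 at 28, past its start. The Mtf1 promoter had 0. Of 32851 RefSeq promoters of the same length, 25.7% held at least 1 match, 7.114% at least 2, 1.969% at least 3 and 0.5175% at least 4. A match describes letters in the window and does not show that a factor binds there. RefSeq and GENCODE starts differ for part of these genes. For Mtf1 the 250 bases before the RefSeq start are chr4:124802299-124802548. The GENCODE start of Mtf1, at 124802104, lies outside the window searched. For Mt2 the printed window ends at 94172617 and the GENCODE start is at 94172664. Windows at other starts of a gene were not searched, nor were bases more than 50 past the start, and Mt1 has 3 transcripts in GENCODE. These counts and positions hold only for the start used. They do not rank the genes by their number of elements.

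Among the 4 metallothioneins, Mt1 had the highest group mean per kilobase of transcript and Mt3 the lowest. In palmitic acid batch 1 the libraries of Mt1 (3764 to 4019 CPM per kilobase) and Mt4 (3160 to 4352) overlapped. In the palmitic acid controls, levels per kilobase were 2929 ± 155 CPM for Mt1 (SD, n = 3), 2210 ± 203 for Mt4, 906 ± 69.4 for Mt2 and 39.7 ± 4.92 for Mt3. In the carmofur controls they were 2804 ± 305 for Mt1 (SD, n = 12), 922 ± 160 for Mt4, 619 ± 146 for Mt2 and 47.1 ± 30.7 for Mt3. The order was thus Mt1, Mt4, Mt2, Mt3 in both control groups. The libraries of neighbours in that order did not overlap in the palmitic acid controls, whereas Mt4 (714 to 1247) and Mt2 (481 to 1009) overlapped in the carmofur controls. Mtf1 and Slc30a1 were far lower, at means of 1.04 and 0.774 CPM per kilobase in the palmitic acid controls and 1.06 and 0.255 in the carmofur controls. By CPM, Mt1 ranked between 76 and 135 among all genes in every control library of both experiments.

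The presence of Mt4 and Mt3 was set beside markers of the tissues for which they are known. Of 15 squamous markers, Krt1, Sprr1b and Trp63 were at 0 in all 35 libraries. Their summed level was 94.0 to 128.9 CPM in the palmitic acid controls and 61.4 to 167.3 CPM in the carmofur controls, and Krt4 contributed most. Of 6 brain markers, Gfap and Rbfox3 were at 0 in all libraries and the sum never exceeded 9.51 CPM. Mt4 was at 284 CPM or more in every control library. There, Krt1, a keratin of squamous layers, and Trp63, the basal cell transcription factor, had no counts. Other squamous markers did: 9 of the 15 had counts in the palmitic acid controls and 10 in the carmofur controls.

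With palmitic acid batch 1, all 4 metallothioneins were higher in every treated library than in every control, and with batch 2 only Mt3 was. Such a difference over every control was seen for 6.92% of the 9845 genes tested with batch 1 and for 10.9% with batch 2. Mt1, the most abundant of them, measured 1530.0, 1595 and 1699 CPM in the controls, 2066, 2174 and 2206 CPM in batch 1, and 1684 and 1688 CPM in batch 2. The batch 2 libraries lay inside the range of the controls. The fitted log2 fold change of Mt1 was 0.42 ± 0.11 (SE) in batch 1 and 0.07 ± 0.12 in batch 2.

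Mt2, which is usually induced along with Mt1, measured 468, 425 and 496 CPM in the 3 controls. It measured 593, 740.0 and 742 CPM in batch 1 and 473 and 461 CPM in batch 2. Batch 1 again lay above all controls, its replicate 1 least so, and batch 2 lay among them. The log2 fold changes of Mt2 were 0.58 ± 0.13 in batch 1 and 0.01 ± 0.15 in batch 2.

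Mt4 measured 955, 889 and 795 CPM in the controls. It measured 1258, 1369 and 1732 CPM in batch 1 and 932 and 733 CPM in batch 2. The third batch 1 library was the highest of the 8, and the batch 2 libraries spanned a range that overlapped the controls. The log2 fold changes of Mt4 were 0.73 ± 0.13 in batch 1 and -0.08 ± 0.14 in batch 2.

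Mt3 was the exception to this split. It measured 19.3, 24.3 and 20.2 CPM in the controls, 51.7, 53.1 and 42.3 CPM in batch 1, and 53.6 and 49.5 CPM in batch 2. All 5 treated libraries lay above all 3 controls, and the batches overlapped each other. The log2 fold changes were 1.19 ± 0.33 and 1.26 ± 0.36, the largest positive values among the 4 metallothioneins in either batch, on 15 to 62 counts per control library.

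**Figure D1:**
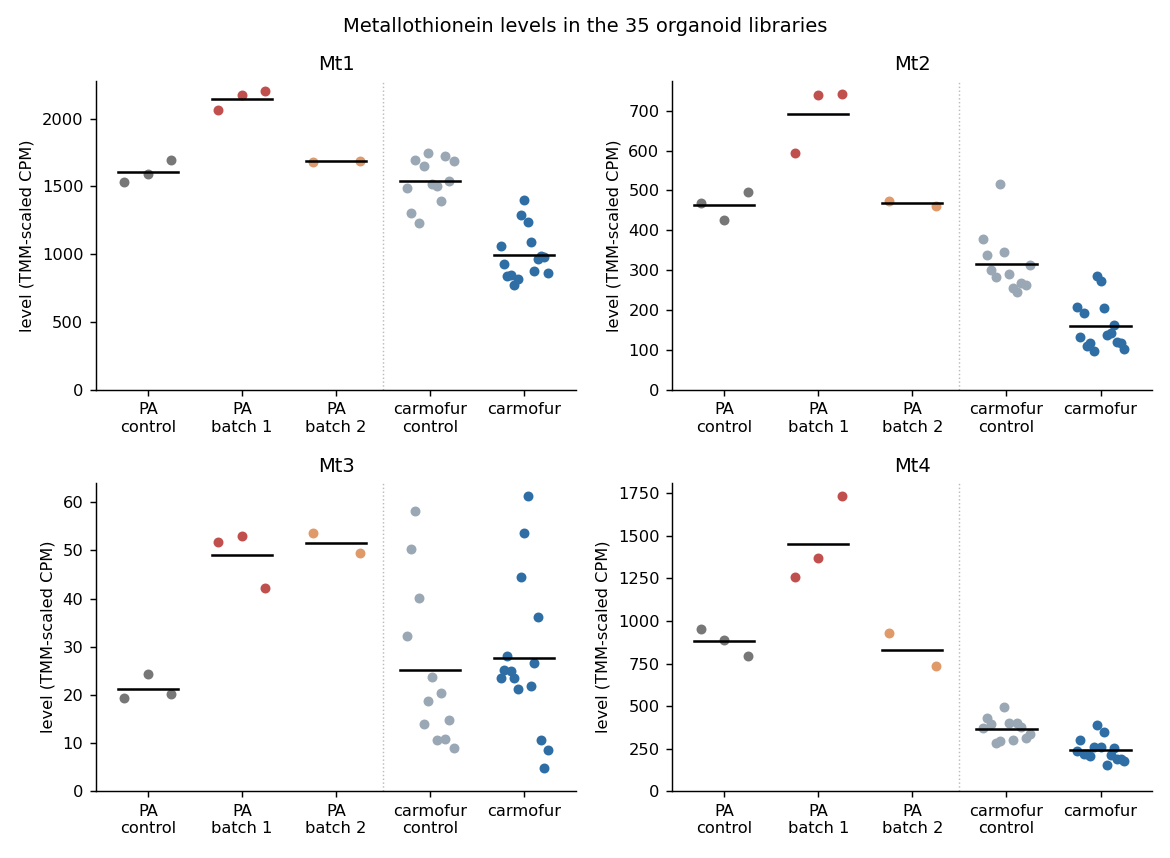
TMM-scaled CPM (vertical axes, linear, from 0) of Mt1, Mt2, Mt3 and Mt4 in each of the 35 libraries by group (horizontal axis; PA is palmitic acid). Points are libraries and black lines are group means. Batch 1 lies above the palmitic acid controls for all 4 genes, batch 2 only for Mt3, and the carmofur means are below their controls for Mt1, Mt2 and Mt4.

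Mtf1, the zinc sensor, was low and scattered, at 11.6, 1.96 and 9.90 CPM in the controls, 4.31, 8.14 and 16.8 CPM in batch 1, and 9.48 and 21.6 CPM in batch 2. Slc30a1, the exporter, measured 5.16, 1.18 and 5.85 CPM in the controls, 0.862, 1.06 and 4.33 CPM in batch 1, and 1.08 and 3.74 CPM in batch 2, on 2 to 13 counts per library. The groups overlapped for both genes. The log2 fold changes of Mtf1 were 0.39 ± 0.71 and 1.05 ± 0.77, and those of Slc30a1 -0.93 ± 1.33 and -0.73 ± 1.48, so neither a rise nor a fall was detectable against this spread between libraries.

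Of the 6 genes, 2 passed an adjusted p of 0.05 in edgeR's quasi-likelihood test with batch 1, Mt2 and Mt4, both as higher. Of all genes tested, 0.559% passed in either direction and 0.315% as higher. With batch 2, 0 of 6 passed in edgeR, where 0.325% of all genes did. Of the 6, 1 had an unadjusted p under 0.05 (Mt3), 1 passed in DESeq2 (Mt3) and 0 in limma-voom. The 6 genes were chosen on these fold changes, so such counts are a description. The share of all genes with an unadjusted p under 0.05 is not given here, so nothing is read from that count. Among all 9845 genes tested with batch 2, DESeq2 called 55 and limma-voom 26. The call of Mt2 with batch 1 was lost when batch 1 replicate 2 or 3 or control replicate 2 was left out (log2 fold changes 0.50, 0.53 and 0.52), and those of Mt2 and Mt4 were lost when the batches were merged (0.36 and 0.43). Mt1 in turn passed with batch 1 under DESeq2, limma-voom or RLE size factors and without control replicate 1 or 3. Mt3 passed with batch 1 under DESeq2 and in the merged batches. Among all 9845 genes tested with batch 1, DESeq2 called 80 and limma-voom 47. Summed over Mt1, Mt2, Mt3 and Mt4, the level was 2972 ± 38.0 CPM in the controls (SD, n = 3), 4343 ± 377 CPM in batch 1 (SD, n = 3) and 2932 and 3143 CPM in batch 2.

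Set directly against each other, batch 2 was below batch 1 for Mt1, Mt2 and Mt4. The log2 differences, batch 2 minus batch 1, were -0.35 ± 0.13 for Mt1, -0.57 ± 0.15 for Mt2, 0.07 ± 0.35 for Mt3 and -0.80 ± 0.14 for Mt4. The 2 batches did not overlap for Mt1, Mt2 and Mt4; 8.7% of all genes were lower in every batch 2 library than in every batch 1 library. Of the 6 genes, 1 passed the adjusted threshold, Mt4, where 0.102% of all genes did and 0.0406% did so as lower. Its call was lost without batch 1 replicate 3 (-0.66) or without batch 2 replicate 2 (-0.63). Of 10 Paneth cell markers, 5 were tested and 1, Ang4, passed between the batches, at 11.3 to 14.4 CPM in batch 1 and 0 in batch 2. Of the 5 tested, 1 had a positive log2 difference, and their median was -0.62, against -0.01 over all genes tested. Mmp7, the most abundant, was not lower in batch 2 (60.4 CPM on average) than in batch 1 (55.9 CPM). Summed, the 10 markers lay at 67.0 to 111.6 CPM without palmitic acid, at 156 to 194 CPM with batch 1 and at 136 to 154 CPM with batch 2, with Defa17 at 0 in all libraries and Lyz1 at 0 in the controls and batch 2. The part of such cells in the metallothionein values was not tested.

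**Figure D2:**
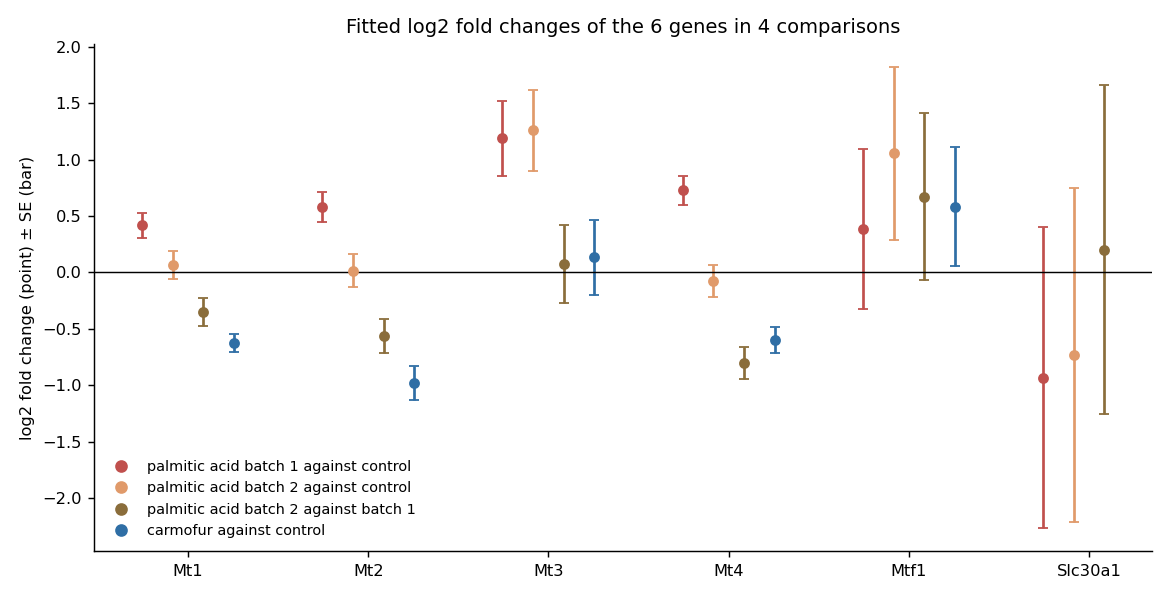
Fitted log2 fold change (vertical axis, points) with its standard error (bars) for the 6 genes in 4 comparisons; Slc30a1 did not pass the expression filter in the carmofur fit. Mt3 sits at 1.19 and 1.26 in the palmitic acid batches, Mt1, Mt2 and Mt4 are positive with batch 1 and negative with carmofur, and the bars of Mtf1 and Slc30a1 are several times wider than those of Mt1.

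With carmofur, Mt1, Mt2 and Mt4 were lower than in the controls, and Mt3 was not. Mt1 measured 1233 CPM at the lowest, 1528 at the median and 1748 at the highest of the 12 controls, and 773, 964 and 1399.7 CPM in the 15 treated libraries. Mt2 measured 246, 295 and 516 CPM in the controls and 96.2, 136 and 286 CPM with carmofur. Mt4 measured 284, 373 and 496 CPM in the controls and 155, 222 and 392 CPM with carmofur. The groups overlapped for each of these genes, and the treated medians lay below the lowest control.

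The fitted log2 fold changes were -0.63 ± 0.08 for Mt1 (1.55-fold lower), -0.98 ± 0.15 for Mt2 (1.98-fold lower) and -0.60 ± 0.12 for Mt4 (1.52-fold lower). Of the 5 genes that passed the expression filter, these 3 passed the adjusted threshold in edgeR's quasi-likelihood test, where 9.02% of the 9992 genes tested did and 3.8% did so as lower. The same 3 genes, and no other of the 5, passed in DESeq2 and in limma-voom. Those tools called 1169 and 1237 of the 9992 genes. The genes were chosen on these fold changes and every tool used the same counts. Their calls in further tools are therefore a description and no independent test. Summed over the 4 metallothioneins, the level was 2248 ± 215 CPM in the controls (SD, n = 12) and 1426 ± 293 CPM with carmofur (SD, n = 15). As a share of all gene counts this was 0.222% ± 0.0217 and 0.142% ± 0.0292.

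Mt3 measured 9.01, 19.6 and 58.1 CPM at the lowest, median and highest control and 4.91, 25.0 and 61.2 CPM with carmofur, so the groups spanned nearly the same range. Its log2 fold change was 0.13 ± 0.33. Mtf1 measured 0, 8.05 and 18.3 CPM in the controls and 3.74, 9.81 and 27.4 CPM with carmofur, with a log2 fold change of 0.58 ± 0.53. Slc30a1 was below the expression filter, with 98 counts in all 12 controls and 265 in all 15 treated libraries, and was at 0 in 2 controls and 3 treated libraries.

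By library number, the carmofur libraries and their controls form 9 sets of 3, which lie in 3 blocks of 12 numbers; the labels do not call these batches. Sets 1, 4, 7 and 9 are controls and sets 2, 3, 5, 6 and 8 are treated. Set 5, carmofur libraries 7 to 9, had the highest mean of the 5 treated sets for each of the 4 metallothioneins. There Mt1 was 1234 to 1399.7 CPM, Mt2 204 to 286 CPM and Mt4 262 to 392 CPM. In the other treated sets Mt1 reached 1089 CPM and Mt2 206 CPM at the highest. Set 5 was singled out by these very values, so the fold changes without it are a description; they were -0.76 for Mt1, -1.23 for Mt2 and -0.75 for Mt4.

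Within blocks, the log2 fold changes were -0.79, -0.43 and -0.74 for Mt1 in blocks 1, 2 and 3, -1.27, -0.92 and -1.28 for Mt2, and -0.75, -0.40 and -0.94 for Mt4. All 9 values were negative, but the genes were chosen on the fold change of which these are parts, so this is a description. Mt2 passed the adjusted threshold in each block, while Mt1 and Mt4 did not pass in block 2. That block holds treated set 5 and also control set 4. Of the control sets, set 4 had the largest SD for Mt1 (273 CPM) and for Mt4 (120 CPM). Why Mt1 and Mt4 did not pass there was not tested. Mt4 also did not pass when the counts were summed by set (-0.58). Among all genes tested, 234 of 10907, 512 of 10781 and 588 of 11034 passed within blocks 1, 2 and 3. With counts summed by set, 334 of 12653 did.

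For Mt3 the sets of 1 treatment differed more than the group means, which were 25.2 ± 16.4 CPM in controls (SD, n = 12) and 27.6 ± 15.7 CPM with carmofur (SD, n = 15). Control sets 1, 4, 7 and 9 had mean levels of 46.9 ± 13.3, 24.3 ± 13.9, 18.2 ± 6.80 and 11.6 ± 2.97 CPM (SD, n = 3 each). Treated sets 2, 3, 5, 6 and 8 had 25.5 ± 2.29, 23.2 ± 1.94, 53.1 ± 8.44, 28.2 ± 7.32 and 8.04 ± 2.92 CPM. In block 1 the treated libraries (21.2 to 28.0 CPM) lay below the controls (32.2 to 58.1 CPM). In block 2 the treated libraries (21.9 to 61.2 CPM) overlapped the controls (14.1 to 40.2 CPM) with a higher mean, and in block 3 (4.91 to 10.7 CPM) they overlapped the controls (9.01 to 23.7 CPM) with a lower mean. The log2 fold change of Mt3 was accordingly -0.96 within block 1, 0.75 within block 2 and -0.90 within block 3, and -0.42 with the block as a covariate, and none of these passed the threshold.

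**Figure D3:**
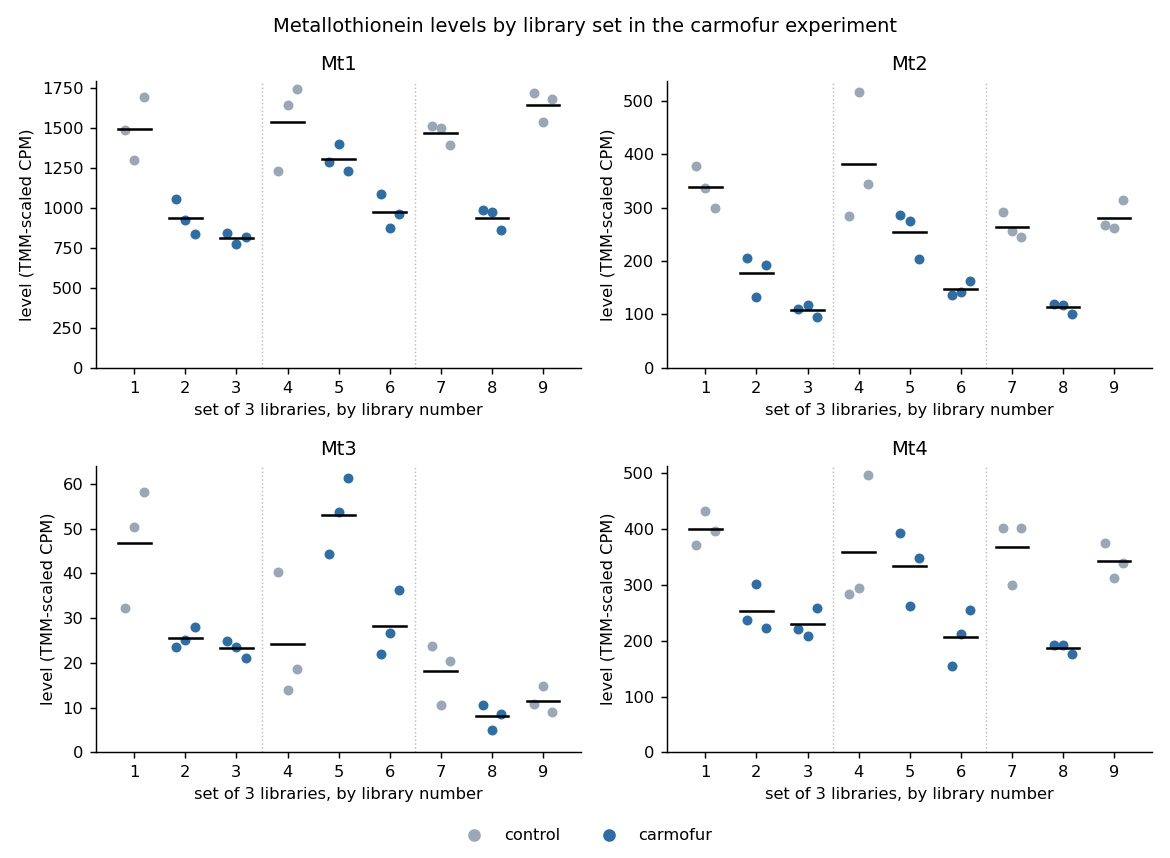
TMM-scaled CPM (vertical axes, linear, from 0) of the 4 metallothioneins in the 27 carmofur experiment libraries, by set of 3 consecutive library numbers (horizontal axes). Points are libraries, black lines are set means and dotted lines separate the 3 blocks; set 5 is the highest treated set for all 4 genes, and Mt3 differs between sets of the same treatment.

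The make-up of the metallothionein counts differed between the experiments as well as with treatment. Mt4 held 29.6% ± 2.93 of the counts of the 4 genes in the palmitic acid controls (SD, n = 3) and 16.3% ± 2.45 in the carmofur controls (SD, n = 12). Of the counts of Mt1 and Mt2 together, Mt1 held between 76.6% and 78.9% in palmitic acid control libraries, between 74.6% and 77.7% in those of batch 1 and 78.1% and 78.5% in those of batch 2. It held 83.0% ± 3.15 in the carmofur controls and 86.5% ± 2.79 with carmofur, with ranges of 76.2% to 86.6% and 81.4% to 89.5% that overlapped. The experiments were normalised apart, and the labels do not say how their control cultures differed.

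**Figure D4:**
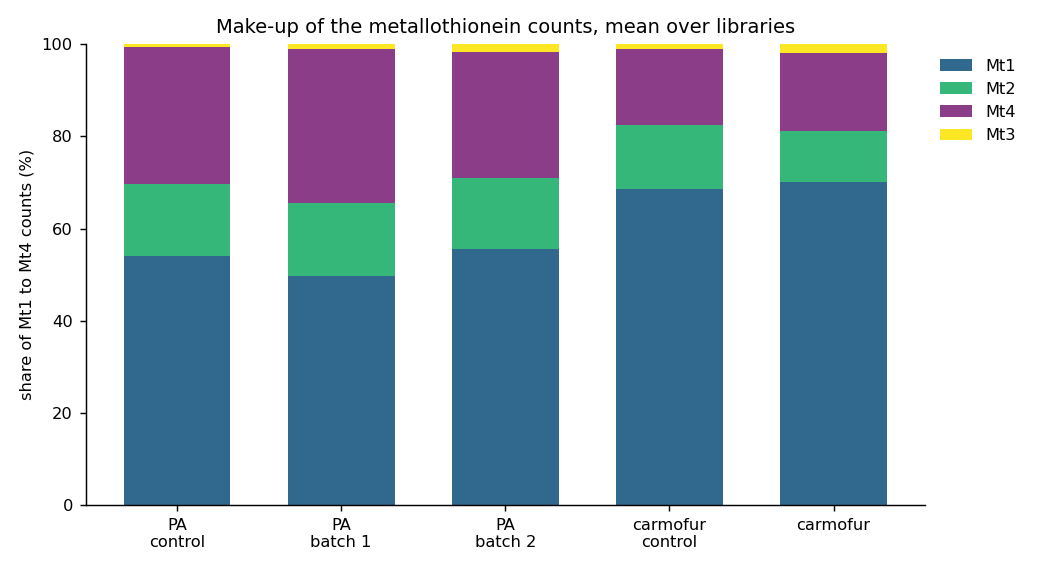
Mean share (vertical axis, percent) of Mt1, Mt2, Mt4 and Mt3 in the summed counts of the 4 genes, by group (horizontal axis; PA is palmitic acid). Mt4 makes up 29.6% in the palmitic acid controls and 16.3% in the carmofur controls, and Mt3 stays under 2% in every group mean.

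Other genes of zinc traffic did not pass the adjusted threshold in edgeR with either treatment. Of 9 zinc exporter genes besides Slc30a1, 6 were tested, and of 14 zinc importer genes 9 were tested with palmitic acid and 8 with carmofur. At an unadjusted p under 0.05 edgeR gave 1 exporter with batch 1, with batch 2 and with carmofur, and 0, 0 and 2 importers. Slc30a2, which moves zinc into vesicles and also stands in the list of Paneth cell markers, was at 11.6 CPM in the palmitic acid controls, 45.0 CPM in batch 1 (log2 fold change 1.78 ± 0.47, edgeR adjusted p = 0.0803) and 29.1 CPM in batch 2 (1.15 ± 0.51, edgeR adjusted p = 0.629). Its 3 control libraries ranged from 0 to 21.1 CPM with a median of 13.7 CPM, so the control mean includes a library at 0. Slc30a2 passed with batch 1 in DESeq2. Slc30a5, which supplies zinc to the secretory pathway, was at 38.0 CPM in the carmofur controls and 56.0 CPM with carmofur (0.56 ± 0.19, edgeR adjusted p = 0.0613) and passed there in DESeq2 and limma-voom.

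Among the importers with carmofur, Slc39a9 had a log2 fold change of -0.84 ± 0.30 (edgeR adjusted p = 0.0737) and passed in DESeq2. Slc39a4, the intestinal zinc uptake transporter, had 0.86 ± 0.36 (edgeR adjusted p = 0.146) and passed in limma-voom. With palmitic acid batch 1, Slc39a10 had -0.51 ± 0.34 and Slc39a9 -0.51 ± 0.45. The median log2 fold change of the exporters was 0.35 with batch 1, 0.11 with batch 2 and -0.19 with carmofur, and that of the importers -0.15, -0.50 and -0.28, against 0.01, -0.01 and 0.00 over all genes tested.

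With palmitic acid, 0 of 62 tested genes in 7 lists of zinc, copper, iron, stress and glucocorticoid genes passed edgeR's threshold in batch 1 or in batch 2. At an unadjusted p under 0.05 there were 8 in batch 1 and 7 in batch 2; DESeq2 called 1 and 0, and limma-voom 0 and 0. The copper chaperone gene Atox1 had log2 fold changes of 0.40 ± 0.13 and 0.44 ± 0.14 (edgeR adjusted p = 0.205 and 0.256), and Cox17, which carries copper to cytochrome oxidase, 0.39 ± 0.16 and 0.56 ± 0.18 (edgeR adjusted p = 0.518 and 0.247). Ndrg1, a stress gene also reported as a target of the zinc sensor, had -0.59 ± 0.22 and -0.69 ± 0.25 (edgeR adjusted p = 0.401 and 0.382). Both batches share their controls, so values that look alike in them are not independent.

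With carmofur, 8 of 61 tested genes in the 7 lists passed, 4 higher and 4 lower, where 9.02% of all genes passed, and nothing particular to these lists is read from the count. Of 5 other genes reported as targets of the zinc sensor, only Ndrg1 passed, and it fell from 186 to 92.5 CPM (log2 fold change -1.01 ± 0.15, edgeR adjusted p = 5.96e-06). Of 10 copper genes, Atox1 rose (0.38 ± 0.09, edgeR adjusted p = 0.00188), and Commd1, which acts in copper export, fell (-0.54 ± 0.15, adjusted p = 0.0170), as did Slc31a1, the main copper importer (-0.30 ± 0.09, adjusted p = 0.0255). The list's median was 0.01, since its members went both ways.

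Of 12 iron genes, Ncoa4, which delivers ferritin for breakdown, rose from 244 to 407 CPM (0.74 ± 0.13, edgeR adjusted p = 4.93e-05), and Tfrc, the transferrin receptor, fell from 288 to 189 CPM (-0.61 ± 0.17, edgeR adjusted p = 0.0119). Of 13 genes of oxidative and heavy metal stress, 0 passed in edgeR, DESeq2 or limma-voom, and 0 had an unadjusted p under 0.05. Hmox1, the heme-degrading enzyme that cadmium and oxidants induce, was at 11.2 CPM in controls and 20.3 CPM with carmofur (0.85 ± 0.48, edgeR adjusted p = 0.354). Of 7 glucocorticoid-responsive genes, Errfi1 (0.77 ± 0.22, edgeR adjusted p = 0.0178) and Sgk1 (1.05 ± 0.33, edgeR adjusted p = 0.0374) rose. The other 5 did not pass, 3 of the 7 had a positive value, and the list's median was -0.39, with Ddit4 at -0.95 ± 0.49 and Klf9 at -0.69 ± 0.39.

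Of these 8 calls, that of Sgk1 was lost in 13 of 24 alternative settings, Errfi1 in 9, Commd1 in 8 and Slc31a1 in 8, and those of Ncoa4, Tfrc, Ndrg1 and Atox1 in at most 2. Within block 1 alone, Atox1 was at -0.03 and Tfrc at -0.07.

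**Figure D5:**
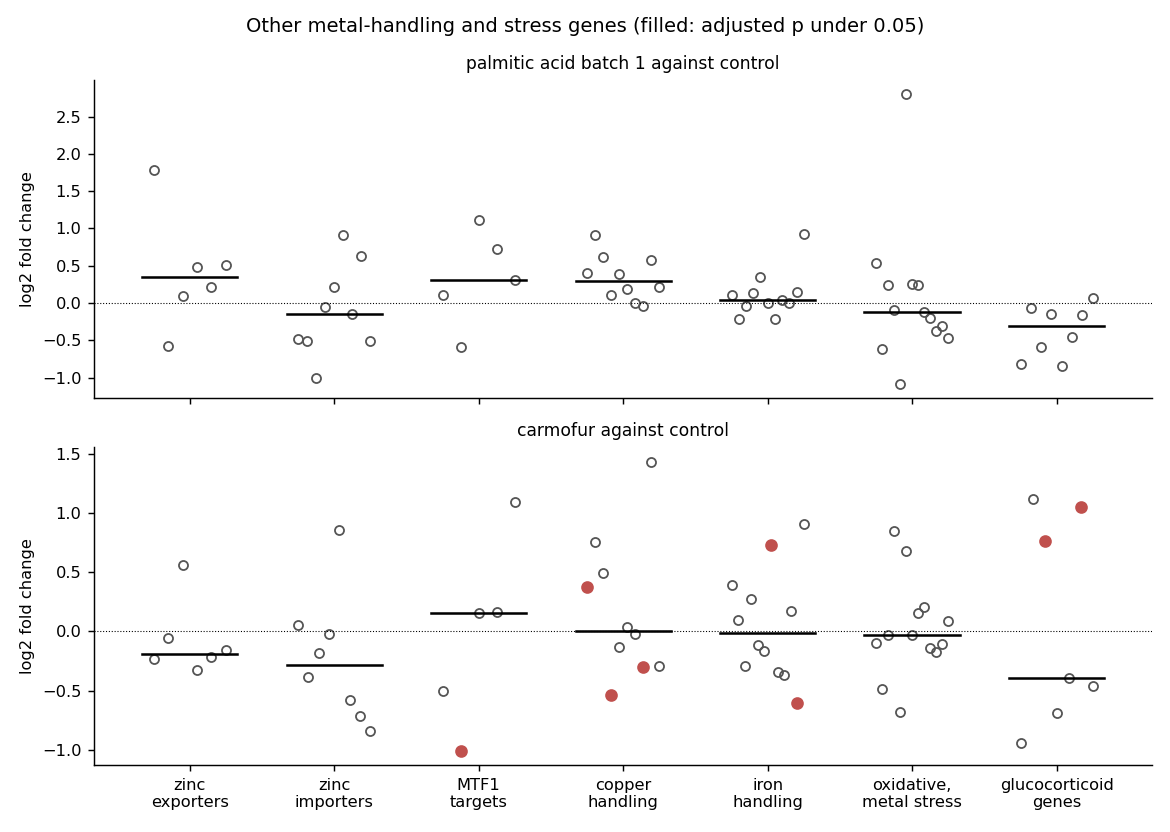
Log2 fold change (vertical axes) of every tested gene in 7 lists (horizontal axis) for palmitic acid batch 1 and carmofur, each against its control. Filled points passed an adjusted p of 0.05 in edgeR and black lines are list medians; with batch 1 no point is filled, and with carmofur 8 are.

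With carmofur, 3 of the 9 squamous markers tested passed, all higher, where 9.02% of all genes passed in either direction. Of the 9, 7 had a positive value, and Sbsn (-0.58 ± 0.54) and Krt10 (-0.14 ± 0.52) had a negative one, as Mt4 did. The summed level of all 15 was 61.4 to 167.3 CPM in the controls and 226 to 655 CPM with carmofur, without overlap. Krt4 rose from 44.8 to 198 CPM (log2 fold change 2.14 ± 0.23, edgeR adjusted p = 1.03e-08), Krt13 from 4.12 to 35.1 CPM (3.07 ± 0.63, adjusted p = 0.000574) and Krt14 from 3.59 to 24.8 CPM (2.84 ± 0.56, adjusted p = 0.000338). Krt1, Krt5, Sprr1b and Trp63 were at 0 in all treated libraries. Of the 9 colon epithelium markers tested, 1 passed, Krt20, a keratin of differentiated colon cells. It rose from 4.24 to 30.5 CPM (2.82 ± 0.51, edgeR adjusted p = 0.000101), and the summed level of these markers was 3928 to 5236 CPM in the controls and 4381 to 6674 CPM with carmofur. The part of such cells in the Mt1, Mt2 and Mt4 values was not tested.

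The genes beside the cluster were compared next. The nearest 3 tested genes on each side were Nudt21, Ogfod1 and Bbs2 before Mt4 and Nup93, Herpud1 and Psme3ip1 after Mt1. Of these 6, 1 passed in any of the 4 comparisons, Nudt21 with carmofur, which lies 100.2 kilobases from Mt4 and encodes a cleavage factor for polyadenylation (-0.87 ± 0.29, edgeR adjusted p = 0.0460). Of all genes, 9.02% passed with carmofur. The alternative settings were not run for these neighbours. Bbs2, the nearest before Mt4 at 38.3 kilobases, had 2.39 ± 0.93 with palmitic acid batch 1 (edgeR adjusted p = 0.436), 0.15 ± 1.06 with batch 2 and -0.31 ± 0.76 with carmofur. Nup93, the nearest gene after Mt1 at 34.2 kilobases, had -0.20 ± 0.22 with carmofur and 0.07 ± 0.31 with palmitic acid batch 1.

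The variation of the metallothioneins within groups is described next. After subtraction of each group's mean, Pearson's r of log2 CPM over the 35 libraries was 0.63 for Mt1 with Mt2, 0.41 for Mt1 with Mt4 and 0.43 for Mt2 with Mt4. With Mt3 it was 0.13 for Mt1, 0.47 for Mt2 and 0.50 for Mt4. These libraries share sets, and with the set means subtracted in the carmofur experiment the first 3 values became 0.32, 0.15 and -0.05, and those with Mt3 became -0.41, -0.41 and 0.10. Among 7999 genes, the 5 whose pattern was most like that of Mt1 by the same measure were Ssr3 (0.81), Ndufa7 (0.74), Pttg1 (0.73), Vmp1 (0.73) and Dync1i2 (0.72). For Mt2 they were Cbr2 (0.71), Ssr3 (0.65), Ero1a (0.65), Ifitm3 (0.63) and Mt1 (0.63), and for Mt4 they were Nudt2 (0.69), Cops9 (0.61), Tbce (0.59), Ubxn7 (0.59) and Ppa2 (0.58). Ssr3 was at -0.27 with Mt1 over the 8 palmitic acid libraries and at 0.86 over the 27 carmofur libraries, so that likeness rests on the carmofur experiment. With Mt2 over the palmitic acid libraries, Ssr3 was at -0.30, Ero1a at -0.14, Ifitm3 at -0.04 and Cbr2 at 0.05, and Ero1a was at -0.30 over all libraries once set means were subtracted.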

How the data were processed

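Polyadenylated RNA was sequenced from 35 organoid libraries with a strand-marking kit, per the labels' protocols. The authors deposited 1 table of estimated counts per gene, whole numbers made with Salmon 1.3.0 on mm10, per the submitters' processing notes. Which annotation release was used, and how transcripts were joined into genes, is not given in the sources used here. Estimated counts divide reads among similar transcripts, so overlapping genes such as Mt2 and Gm45774 depend on that division. Gene positions came from GENCODE M21, which held 51485 of 54354 identifiers, and promoters from RefSeq on GRCm38.p6.

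Groups came from the labels. edgeR 4.0.16 in R 4.3.3 was run with TMM scaling, its default expression filter and the robust quasi-likelihood F test, with Benjamini-Hochberg adjustment over every gene tested and a threshold of 0.05. One fit held the 8 palmitic acid libraries and another the 27 carmofur libraries. CPM are TMM-scaled within each experiment, and a standard error is the log2 fold change divided by the square root of F. The precision of the 2 fits differed: the biological coefficient of variation was 0.407 with palmitic acid and 0.75 with carmofur. Per-kilobase levels used the transcript with the most exons. The scripts were tested on simulated data. No library pair was identical.

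Alternatives were RLE or library-size scaling, DESeq2 1.42.0, limma-voom (limma 3.58.1), other filters, left-out libraries or library sets, the replicate number as a block, library blocks, merged palmitic acid batches and summed metallothionein counts. Likeness after set centring and within each experiment was added after the data were seen.

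The 6 genes and the 14 lists were chosen with earlier results of these data known. Named beside the 6 genes are all genes of the 7 pathway lists past the threshold, otherwise up to 2 of lowest p per list at a mean of 1 CPM or more, the 5 genes most like Mt1, Mt2 and Mt4 at a mean of 5 CPM or more, and 3 neighbours on each side. Marker genes are named with their lists.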

Additional observations from a re-analysis of the deposited data

Results flagged for a closer look

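The difference of Mt4 between the palmitic acid batches was singled out because it passed the adjusted threshold when the batches were compared directly. The gene was chosen with these values known, so the difference is a description. Batch 2 was lower than batch 1 by a log2 difference of -0.80, with 733 and 932 CPM against 1258 to 1732 CPM. The call was lost without batch 1 replicate 3 (-0.66) or without batch 2 replicate 2 (-0.63). Both batches share the same 3 controls. No group held 4 to 10 libraries, so single libraries could not be screened for gaps.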

How the results depend on the processing

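Leaving out each library gave 21 to 72 called genes for palmitic acid batch 1 (55 with all), 23 to 48 for batch 2 (32) and 2 to 14 between the batches (10). Leaving out each set gave 740 to 981 for carmofur (901). DESeq2 gave 55 for batch 2, and no filter gave 19 between the batches and 3541 for carmofur. Summing counts by set gave 334 for carmofur. There all 27 libraries entered as 9 sums, so the libraries of a set no longer counted as separate replicates. Fits within blocks 1, 2 and 3 gave 234, 512 and 588, each from fewer libraries.

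The labels' replicate numbers do not pair the libraries: same-numbered libraries correlated at -0.02 to 0.02 with palmitic acid and -0.02 to 0.05 with carmofur. With the replicate number as a block the counts were 42, 28, 8 and 799 for batch 1, batch 2, the difference between batches and carmofur.

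Signs turned for these values, and the cause was not tested. With batch 2, Mt2 was at -0.00734 with library-size scaling and -0.00679 with a mean count of at least 10. With 1 library left out at a time, Mt2 (-0.0431 to 0.0696, lowest without control replicate 2) and Mt4 (-0.25 to 0.0978) crossed 0 with batch 2, and Mtf1 (-0.25 to 0.74) with batch 1. Between batches Mt3 (-0.0238 to 0.15), Mtf1 (-0.0290 to 1.296) and Slc30a1 (-0.88 to 1.25) did. With carmofur, Mt3 ran from -0.26 without set 5 to 0.61 without set 1, and was at -0.42 with the block as a covariate and at -0.96 and -0.90 within blocks 1 and 3. Atox1 was at -0.0317 within block 1 and Slc31a1 at 0.15 within block 2. Mt1, Mt2 and Mt4 stayed negative with carmofur in every alternative run. They were chosen on these fold changes, so this is a description.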
